A study of Mus musculus with 22 samples.

Results

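Sox1, Sox3, Sox21, Sox4, Sox11, Sox9 and Sox10 are 7 members of the Sox family of transcription factors that are often read as markers of the neural tube, of neurons and of the neural crest. They were taken by symbol from the 32285 genes of the count tables, and all 7 were found. Their RNA was followed in gastruloids, mouse embryonic stem cell aggregates in which germ layer derivatives arise in culture. Wild-type E14Tg2A cells, a feeder-independent mouse embryonic stem cell line, were seeded at 300 per well and aggregated for 48 h. They then received CHIR99021 at 3 µM, which blocks GSK3 and so switches on Wnt signalling, so every group shares that pulse and no untreated control was part of the comparisons. In MULTI-seq the cells of each gastruloid are tagged with a lipid-anchored barcode before they are pooled for droplet capture, and 135 gastruloids with at least 30 cells served here as replicates. In MULTI-seq 3, day 3 had 24 gastruloids, and days 3.5, 4, 4.5 and 5 had 16 apiece. MULTI-seq 2 gave 11 of day 4 and 12 of day 4.5, and MULTI-seq 1 gave 24 of day 5; samples of days 3 and 3.5 from MULTI-seq 2 were not analysed here. All come from 1 cell line, and the labels of the samples do not say whether gastruloids of 1 day came from separate cultures, so p-values measure the spread between gastruloids grown side by side.

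The final cells numbered 77674, in 18 capture lanes, and 53730 of them carried a gastruloid call. The final cells of a lane held 30065021 to 238431052 UMIs (unique molecular identifiers, 1 per captured RNA molecule), with a median of 8287 to 38443 per cell, and pairs of lanes shared at most 15 cell barcodes. A gastruloid held 1293296 to 57333371 UMIs. Levels are CPM, the UMIs of a gene per 1000000 UMIs of the sum, and a mean ± SD is over gastruloids. The authors' table gives each cell 1 of 25 names, which were made from expression and so from these genes among others: levels by name are a description with no test. Means by name pool the days on which a name had a value, and names differ in those days. Of 5 neural tube markers, Sox2, Pax6 and Hes5 were highest in Late Spinal Cord cells, Ncam1 in Early Spinal Cord and Nes in Caudal Epiblast, while 5 of 5 neuron markers were highest in Neurons (levels summed over gastruloid-assigned cells, 41 of them Neurons).

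Sox proteins bind DNA through an HMG box and are grouped by its sequence. The SoxB1 genes Sox1 and Sox3, with Sox2, hold neural progenitors undifferentiated, and the SoxB2 gene Sox21 opposes them and favours exit from the progenitor state. The SoxC genes Sox4 and Sox11 act later, in newborn neurons, and also in many mesenchymal tissues. The SoxE gene Sox9 works in neural stem cells, neural crest, notochord and cartilage, and Sox10 marks migrating neural crest and its glia.

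In GENCODE M21 on GRCm38, the mm10 assembly, 5 of the 7 genes are single-exon: Sox1 (ENSMUSG00000096014) at chr8:12395295-12400126 on the plus strand, and, on the minus strand, Sox3 (ENSMUSG00000045179) at chrX:60891366-60893430, Sox21 (ENSMUSG00000061517) at chr14:118233232-118237030, Sox4 (ENSMUSG00000076431) at chr13:28948919-28953713 and Sox11 (ENSMUSG00000063632) at chr12:27334264-27342574. Sox9 (ENSMUSG00000000567), at chr11:112782224-112787760 on the plus strand, has 3 exons. Sox10 (ENSMUSG00000033006), at chr15:79154908-79165240 on the minus strand, has 4 transcripts of 2 to 5 exons. Sox1 overlaps the gene model of Sox1ot, but no exon of it, on the same strand. It also overlaps an exon of the miRNA Gm25239 on that strand. Sox21 overlaps the lincRNA Gm4675, and Sox4 the lincRNA Gm26735, on the opposite strand. The sources used here do not give whether counting used strand or intronic reads. Whether reads of those overlaps entered the counts of the members was not tested.

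The sequences upstream of 3 members are shown because the levels below set them apart by where they were read: Sox21 in late neural names and endoderm, Sox4 and Sox11 in nearly every cell name. They are RefSeq sequences on GRCm38.p6, on the gene's own strand from 5′ to 3′, at chr14:118237031-118237280 for Sox21, chr13:28953714-28953949 for Sox4 and chr12:27342719-27342968 for Sox11. Capitals mark CCAAT, the CCAAT box of many promoters, or its reverse complement ATTGG, a pair of motifs chosen after the sequences were seen.
Sox21: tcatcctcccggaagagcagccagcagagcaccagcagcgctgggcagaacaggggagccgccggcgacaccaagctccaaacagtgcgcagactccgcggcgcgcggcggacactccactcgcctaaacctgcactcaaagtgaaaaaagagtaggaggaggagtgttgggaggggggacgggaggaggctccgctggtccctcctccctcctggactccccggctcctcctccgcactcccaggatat
Sox4: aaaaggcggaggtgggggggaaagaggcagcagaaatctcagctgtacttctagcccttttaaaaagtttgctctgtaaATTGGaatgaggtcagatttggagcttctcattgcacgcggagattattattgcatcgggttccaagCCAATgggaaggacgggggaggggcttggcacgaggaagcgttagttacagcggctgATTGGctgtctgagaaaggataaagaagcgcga
Sox11: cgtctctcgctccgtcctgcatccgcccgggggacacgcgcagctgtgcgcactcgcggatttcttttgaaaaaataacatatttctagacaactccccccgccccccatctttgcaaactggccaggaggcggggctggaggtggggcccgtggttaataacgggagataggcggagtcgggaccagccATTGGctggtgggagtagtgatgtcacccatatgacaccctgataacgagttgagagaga
In windows of 250 bases, CCAAT in either orientation matched 4 times at Sox4 (3 of them in the 236 bases shown), 1 time each at Sox11 and Sox1, and 0 times at Sox21, and 34.5% of 27025 promoters held it. The Sox1 window has 26 bases upstream of the gene and 224 inside it, so its matches are not comparable with upstream ones. The TATA box, searched as TATAAA on both strands, matched 0 times at the 4 members in the table and stood in 12.97% of all promoters. Sequences that Sox proteins are known to bind gave 0 matches too: ACAAAG stood in 16.5% of promoters, and the variant ACAATG in 10.99%. A match is a description of letters, not a binding site.

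Sox1 RNA was held by neural names. Its level was 120 ± 26.3 CPM in Late Neurectoderm (17 gastruloids with at least 10 such cells, 73.8 to 166) and 71.7 ± 23.3 in Late Spinal Cord (40 gastruloids, 10.9 to 115), ranges that overlap although the means lie more than 1 SD apart. Caudal Neurectoderm (23.3 ± 11.6, n = 25), Early Spinal Cord (21.8 ± 10.5, n = 84) and Early Neurectoderm (14.7 ± 13.3, n = 31) followed and did not differ beyond their spread. These means pool days, and the order of the names differed by day: on day 3 of MULTI-seq 3 Early Neurectoderm held 7.15 ± 3.82 (n = 21) and Caudal Neurectoderm 27.0 ± 14.3 (n = 5), and on day 3.5 they held 29.4 ± 12.6 (n = 9) and 20.5 ± 9.77 (n = 13). NMPs, the neuromesodermal progenitors that give rise to spinal cord and somites, held 8.03 ± 4.76 (n = 76) and Caudal Epiblast 4.84 ± 3.23 (n = 44), again within 1 SD of each other. In Epiblast 1 gastruloid, of day 3.5, had enough such cells and held 29.0, while all Epiblast cells summed held 1.67 CPM on day 3 (77 cells), 15.4 on day 3.5 (53) and 6.77 on day 4 (36) of MULTI-seq 3. Primitive Streak held 1.38, and names of mesoderm, endoderm and notochord were at or below 0.91 in the mean.

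Sox3 had the same leading names and a longer tail. Late Neurectoderm held 99.9 ± 34.3 CPM and Late Spinal Cord 87.8 ± 24.7, which did not differ beyond their spread. Early Spinal Cord (57.0 ± 16.8), Caudal Neurectoderm (47.5 ± 19.2), Early Neurectoderm (44.4 ± 12.4), NMPs (34.2 ± 13.4), Caudal Epiblast (30.2 ± 13.3) and Primitive Streak (22.7 ± 7.06) formed a series in which each step was under 1 SD of either name, except that the last exceeded the SD of Primitive Streak. Notochord held 10.3 ± 6.53, and the mesodermal names 5.10 or less. Correlations were described over 24 names with at least 50 cells, which leave out Neurons and share libraries. The log2 levels of Sox1 and Sox3 had a Pearson r of 0.925 over these names. With Sox2, their SoxB1 relative, r was 0.808 for Sox1 and 0.859 for Sox3.

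Sox21 was high in 3 names, 1 of them not neural. Late Neurectoderm held 110.9 ± 42.8 CPM (45.2 to 195), Mature Endoderm 68.1 ± 34.3 (n = 46, 21.9 to 178) and Late Spinal Cord 64.4 ± 21.8 (n = 40, 7.51 to 106). Endoderm and spinal cord overlapped and, with days pooled, did not differ beyond their spread. By day, Mature Endoderm averaged 43.3 ± 12.9 on day 4 (n = 14), 59.2 ± 27.0 on day 4.5 and 91.6 ± 24.7 on day 5 of MULTI-seq 3, where Late Spinal Cord averaged 75.1 ± 11.4 on day 4.5 and 70.6 ± 18.2 on day 5. Early Spinal Cord, by contrast, held 3.70 ± 3.41, below the 10.6 ± 5.56 of Notochord. Mature Endoderm was also where the endoderm markers Sox17 (259.7 CPM), Epcam (742.0), Cldn6 (258.4) and Trh (2323) were highest, with Sox1 at 0.68 ± 1.01. The remaining endoderm marker looked at, Foxa2, was highest in Notochord (157.4). The name neural therefore covers Sox21 in part only.

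Sox4 and Sox11 were read in nearly every name. Among the 23 names with a gastruloid value, which leave out Neurons and PGCs, Sox4 was highest in mesoderm and notochord: Somites held 421 ± 92.1 CPM (n = 55), Head Mesoderm 398 ± 116 (n = 27) and Notochord 374 ± 68.6 (n = 18), which did not differ beyond their spread. Late Nascent Mesoderm, at 256 ± 40.4, was next. In the neurectoderm and spinal cord names Sox4 was lower, at 169 ± 78.3 in Late Neurectoderm, 151 ± 30.8 in Early Spinal Cord, 138 ± 23.7 in Late Spinal Cord and 83.2 ± 14.1 in Early Neurectoderm, the lowest mean of the 23. Early Neurectoderm had 21 of its 31 values on day 3, when it held 85.4 ± 15.6 beside 98.5 ± 10.9 in Primitive Streak and 206 ± 25.8 in Early Nascent Mesoderm, while Somites had none before day 4. Among the same 23 names Sox11 was highest in Late Neurectoderm (644 ± 207) and Mature Somites (599 ± 134, n = 71), followed by Cardiopharyngeal Mesoderm (495 ± 159), Head Mesoderm (485 ± 127) and Late Spinal Cord (478 ± 67.8), all within 1 SD of their neighbours. Its lowest mean was 88.4 ± 38.3, in Mature Endoderm.

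Both SoxC genes were at their highest in Neurons, of which no gastruloid had 10 cells. Summed over the 41 gastruloid-assigned Neurons, Sox11 stood at 1676 CPM (exact Poisson 95% interval 1580 to 1776, counting error only) and Sox4 at 918.8. In the same cells Sox3 stood at 47.1 CPM, Sox21 at 35.3 and Sox1 at 19.1, below Late Spinal Cord for each.

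Sox9 was highest outside the neural names. Notochord held 212 ± 83.7 CPM (n = 18, 76.2 to 373), Head Mesoderm 100 ± 46.9 and Late Nascent Mesoderm 71.9 ± 27.2. Notochord was also the top name for T (811.5 CPM), Noto (40.7) and Shh (90.9), genes that define that tissue. Mature Endoderm (44.1 ± 34.3), Mature Somites (33.6 ± 23.9) and Late Neurectoderm (32.3 ± 33.0, 0 to 102) did not differ beyond their spread. Late Spinal Cord held 7.73 ± 8.49 and Early Spinal Cord 7.54 ± 4.38. Over the 24 names with at least 50 cells, Sox9 and Sox4 had an r of 0.784, against 0.325 for Sox4 and Sox11. Those names leave out Neurons, where both Sox4 and Sox11 were highest.

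**Figure D1:**
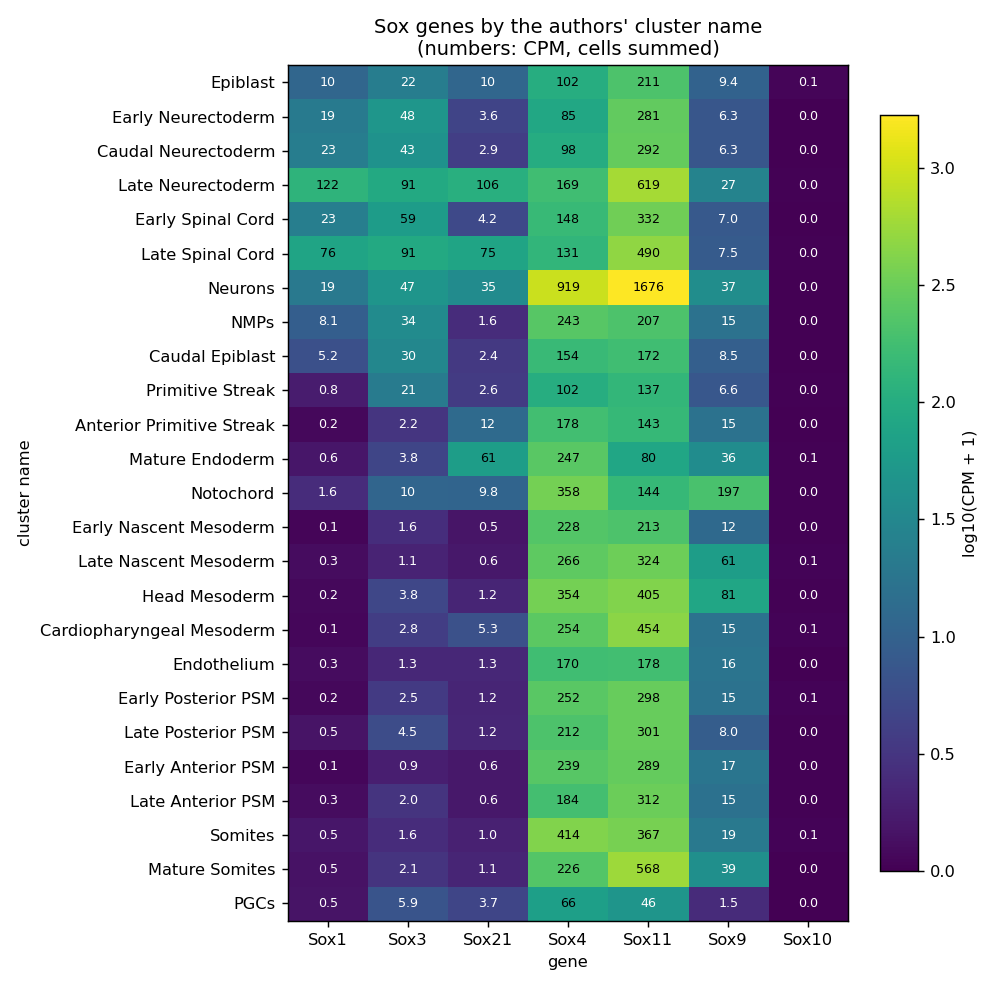
CPM of the 7 Sox genes (columns) in the authors' 25 cluster names (rows), cells of all gastruloids summed; colour is log10(CPM + 1) and the printed number is CPM. Sox1 and Sox3 fill the neural rows, while Sox21 is high in Late Neurectoderm, Late Spinal Cord and Mature Endoderm and low in Early Spinal Cord. Sox9 peaks in Notochord, Sox4 and Sox11 span all rows and peak in Neurons, and the Sox10 column is near 0.

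Sox10 gave 77 UMIs in 76 of 77674 cells (0.0978%), with at most 2 in a cell. The share was highest in Epiblast (2 of 398 cells, 0.503%) and Mature Endoderm (7 of 2740, 0.256%). It was 0 in Anterior Primitive Streak, Caudal Neurectoderm, Endothelium, Neurons and PGCs, where 0 of 2284 Caudal Neurectoderm cells allows a share of cells with a Sox10 UMI of up to 0.131% and 0 of 70 Neurons up to 4.29%; these limits are for cells with a UMI at this depth, not for cells that express the gene. No UMI fell in the 24 gastruloids of MULTI-seq 1. Of neural crest markers in the 76 cells, Foxd3 was seen in 1 (1.32%, against 0.327% of all cells) and Tfap2a in 2 (2.63%, against 1.77%). Erbb3 was seen in 5 (6.58%, against 3.54%) and Ets1 in 21 (27.6%, against 16.5%). Depth was not made equal for these shares, and no difference was tested. Over gastruloid-assigned cells Foxd3 reached at most 9.03 CPM, in PGCs, and Tfap2a 13.3, in Neurons. Sox10 passed the filter on low counts in no comparison.

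Levels in CPM can hide whether few cells hold much RNA or many hold little. Each cell was therefore thinned to 5000 UMIs, leaving out 189 shallower cells, all of MULTI-seq 1. Sox1 was then read in 43.4% of Late Neurectoderm cells, 28.5% of Late Spinal Cord, 9.41% of Early Spinal Cord and 3.80% of NMPs; unthinned, the shares were 88.6%, 70.6%, 36.9% and 15.9%. Endothelium, which should lack Sox1, gave 1 of 235 cells (0.426%, exact binomial 95% interval 0.0108% to 2.35%) at a median depth of 23064.5 UMIs, close to the 24887 of Late Spinal Cord. That background rests on 1 cell, and larger names gave 1 of 1599 in Cardiopharyngeal Mesoderm (0.0625%, 0.00158% to 0.348%), 0 of 916 in Early Nascent Mesoderm (up to 0.328%) and 0 of 1539 in Late Nascent Mesoderm (up to 0.195%). Mature Endoderm gave 5 of 2202 (0.227%, 0.0738% to 0.529%), an interval that overlaps those of Endothelium and Cardiopharyngeal Mesoderm. Sox21 was read in 37.5% of Late Neurectoderm, 27.8% of Late Spinal Cord and 25.4% of Mature Endoderm cells. It was read in 0.426% of Endothelium (again 1 cell) and 0.519% of Head Mesoderm. Early Spinal Cord, at 1.66% (1.35% to 2.01%), lay among the non-neural names other than Mature Endoderm. Those ran from 0.260% in Late Nascent Mesoderm to 4.34% in Notochord (3.09% to 5.91%). Sox9 was read in 48.9% of Notochord, 29.97% of Head Mesoderm and 3.96% of Late Spinal Cord cells (3.42% to 4.55%), the last below the 6.81% of Endothelium (3.94% to 10.8%) with overlap and above the 2.55% of Primitive Streak (2.09% to 3.09%).

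Within a name, the thinned genes co-occurred about as often as their separate shares multiply to. In Late Spinal Cord, Sox1 and Sox3 were read together in 9.68% of cells (9.95% from the product), Sox1 and Sox21 in 8.44% (7.93%), Sox3 and Sox21 in 10.2% (9.69%), and Sox4 and Sox11 in 42.3% (41.2%). Late Neurectoderm gave 14.8% (13.8%) for Sox1 with Sox3 and 16.8% (16.3%) for Sox1 with Sox21.

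The genes whose level over the 24 names was most like each member's, of 7756 with at least 20 CPM in a name, were Rfx4 (r 0.956), Fgfbp3 (0.947), Dtx4 (0.940), Insl6 (0.938) and Hes3 (0.925) for Sox1. For Sox3 they were Hes3 (0.944), Sox1 (0.925), Adgrv1 (0.917), Camkv (0.917) and Sfrp2 (0.914). Sox21 had looser neighbours, Emid1 (0.899) and then Cemip2 (0.808), Acot1 (0.807), Mir124-2hg (0.796) and Celsr2 (0.795). Sox11 was closest to Rnf144a (0.925), 1110004F10Rik (0.917), Fndc3c1 (0.915), Hdgfl3 (0.913) and Cbx5 (0.896), Sox4 to Rcn1 (0.898), Arid1a (0.897), Gtf2a1 (0.891), Maged1 (0.888) and Fundc1 (0.882), and Sox9 to Ppil2 (0.869), Tmco3 (0.862), Snx6 (0.843), Erlin2 (0.841) and Prkcsh (0.838). Each r is over 24 sums of cells that share lanes and depth, and Neurons are not among them. Among the other Sox genes, Sox2 peaked in Late Spinal Cord (270.0 CPM), Sox13 in Late Neurectoderm (44.2), Sox17 in Mature Endoderm, Sox18 (180.3) and Sox7 (28.5) in Endothelium, Sox12 in Head Mesoderm (86.3), Sox6 in Late Anterior PSM (17.6), Sox5 in Mature Somites (4.86) and Sox15 in PGCs (7.08).

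How much of each gene's RNA came from the 6 neural names (the Neurectoderm and Spinal Cord names and Neurons) depended on the day. Those names held 5.85% to 43.6% of all UMIs. Sox1 lay between 83.4% and 96.7% in each of the 8 groups of experiment and day. Sox3 ran from 34.0% on day 3, when 55.6% of its UMIs were in Primitive Streak, to 87.5% on day 4.5 of MULTI-seq 3. On day 3 of MULTI-seq 3 the neural names held 19.6% of the Sox21 UMIs and Primitive Streak 43.5%. On day 3.5 the neural names held 62.3%. Sox21 was mostly endodermal on day 4, when Mature Endoderm held 65.5% of its UMIs in MULTI-seq 3 and 74.9% in MULTI-seq 2. The neural names then held 15.3% and 12.8%. On day 4.5 Sox21 was mostly neural, at 83.1% and 78.6%. The neural names' share of all UMIs moved as well, from 5.85% and 15.2% on day 4 to 43.6% and 37.5% on day 4.5, so that on day 4 the share for Sox21 lay above that of all RNA in MULTI-seq 3 and, in MULTI-seq 2, had an interval (9.67% to 16.6%) that included it. Sox4 (3.17% to 33.0%) and Sox9 (1.699% to 21.9%) gave most of their UMIs outside neural names in each group. Sox11 exceeded the share of all RNA in each group, by most on the early days: 26.0% against 16.6% for all genes on day 3, 43.1% against 34.3% on day 3.5, and 40.6% against 39.8% on day 5 of MULTI-seq 3.

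**Figure D2:**
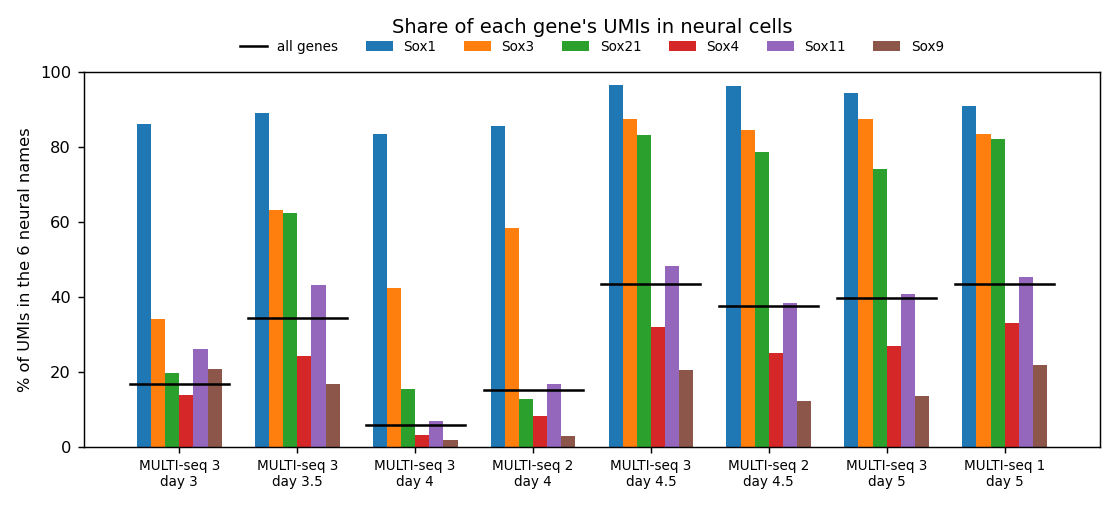
Percent of each gene's UMIs that fell in the 6 neural names (y axis), for 8 groups of experiment and day (x axis); bars are genes and the black line is the share of all UMIs. Sox1 exceeds 83% in each group, Sox21 drops to 15.3% and 12.8% in the day 4 groups, and Sox4 and Sox9 lie below the black line except Sox9 on day 3.

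In whole gastruloids, where fewer cells of a type and less RNA per cell cannot be told apart, Sox1 ranged widely. It had a lowest, median and highest value of 0.507, 1.61 and 7.99 CPM on day 3 of MULTI-seq 3, then 0.693, 12.8 and 58.2 on day 3.5, 0.306, 1.04 and 61.8 on day 4, 1.42, 6.50 and 95.2 on day 4.5 and 2.24, 9.97 and 55.7 on day 5. MULTI-seq 1 spanned 1.67 to 77.1 on day 5. On day 4 most gastruloids were thus near 1 CPM and a few far above. The share of cells with a neural name spanned 0.0885% to 73.7% on that day, with a median of 1.18%, and 2.69% to 95.7% on day 4.5. The day 4.5 gastruloid with 95.7% neural cells was the highest of its 16 in Sox1 (95.2), Sox3 (98.2), Sox21 (100.9) and Sox11 (612), and the one with 2.69%, the lowest share, was the highest in Sox4 (261). Since the names rest on expression, this side by side is a description.

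Sox11 had the smallest SD relative to its mean of the 6 members above 1 CPM on each day of MULTI-seq 3, at 160 ± 14.9, 257 ± 41.2, 279.5 ± 28.8, 360 ± 73.0 and 435 ± 43.9 CPM on days 3, 3.5, 4, 4.5 and 5 of MULTI-seq 3 (n = 24, then 16 each), each mean above the one before; steps between pools were not tested. The gastruloids of day 3, at 137 to 198, lay below all of day 3.5, at 207.5 to 363. These days come from different pools, and how many of all genes separate them in the same way was not computed. Sox4 stood at 121 ± 24.3, 145 ± 45.4, 243 ± 40.6, 197 ± 46.0 and 211 ± 43.5. Sox9 stood at 4.20 ± 2.03, 8.24 ± 4.37, 28.7 ± 15.7, 19.9 ± 15.0 and 26.2 ± 17.4. Sox21 went from 2.40 ± 1.72 on day 3 to 22.6 ± 24.4 on day 4.5.

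**Figure D3:**
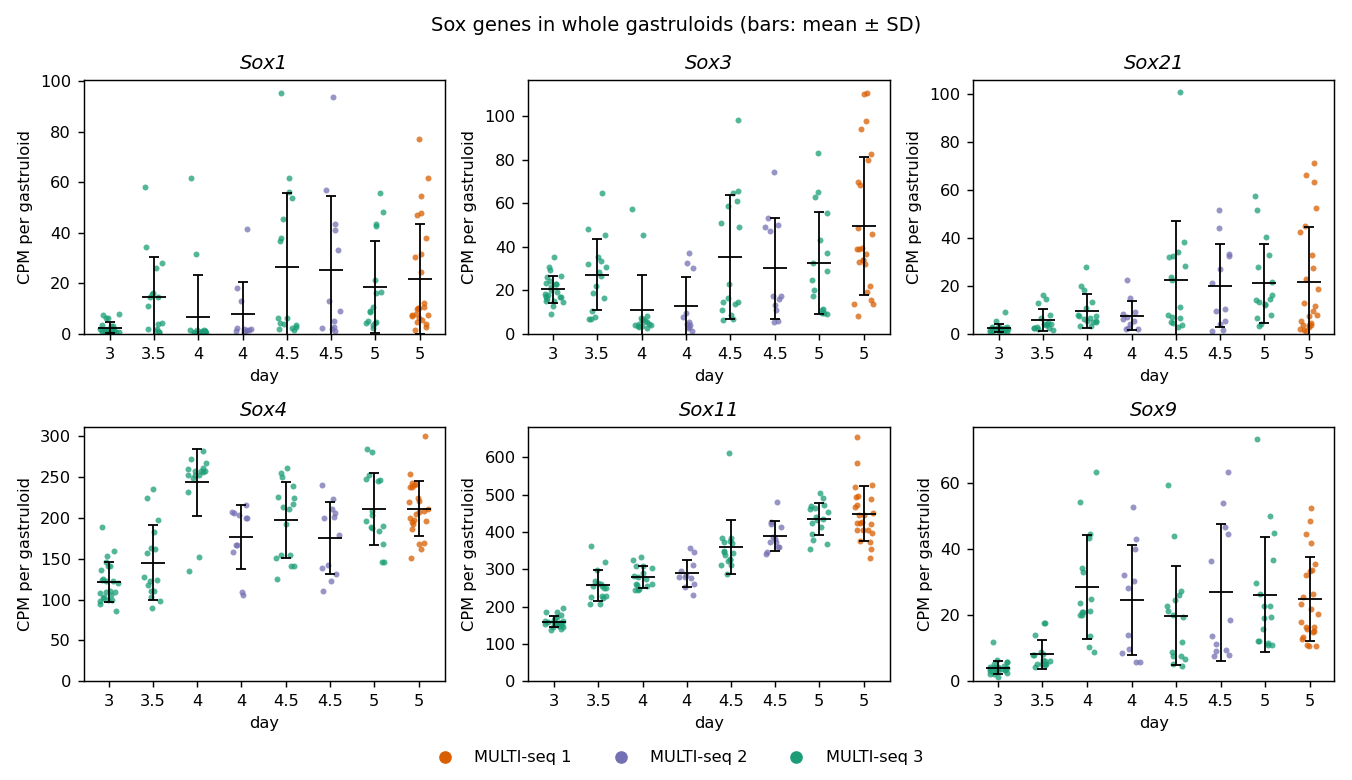
CPM (y axis) of 6 Sox genes in whole gastruloids by day and experiment (x axis); each point is 1 gastruloid and bars are mean ± SD. Sox11 climbs from 160 on day 3 to 435 on day 5 in MULTI-seq 3, while Sox1 on day 4 has 14 of 16 points close to 0 and 2 far above.

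Days that share a pool and its lanes were tested against each other (edgeR quasi-likelihood test over all genes passing the filter, Benjamini-Hochberg adjusted p below 0.05 called). Day 4 against day 3.5 called 60.4% of genes tested, and 3 of the 6 members tested. Sox9 rose from 8.24 to 28.7 CPM (log2 fold change 1.72 ± 0.26 SE, edgeR adjusted p = 1.28e-06) and Sox4 from 145 to 243 (0.71 ± 0.13, adjusted p = 2.6e-05), with 13 of 16 day 4 gastruloids above all of day 3.5 for each. Sox3 fell from 27.2 to 10.9 (-1.38 ± 0.43, adjusted p = 0.00667), with 12 of 16 below all. The share of cells with a neural name differed as well, with a median of 43.9% on day 3.5 (0.498% to 83.5%) and 1.18% on day 4, where 2 of 16 gastruloids stood apart at 69.2% and 73.7%; its part in these changes was not tested. Sox1 (-1.23 ± 0.76, adjusted p = 0.162), Sox21 (0.70 ± 0.34, adjusted p = 0.0715) and Sox11 (0.10 ± 0.06, adjusted p = 0.166) did not pass. Of 5 other Sox genes tested 3 rose, led by Sox17 (2.70 ± 0.50), a regulator of endoderm, and Sox6 (1.67 ± 0.21). Of 14 neural progenitor genes 6 rose and 2 fell, with Pou3f3 at 2.08 ± 0.27, Irx3 at 1.74 ± 0.22 and Pax6 at 1.11 ± 0.27 among those that rose. Of 10 neuronal genes 2 rose and 5 fell. Of 8 neural crest genes 4 rose, led by Pax3 (3.75 ± 0.41), which somites also express, and 1 fell. Among cartilage and sclerotome genes 3 of 3 rose (Foxc2 at 3.61 ± 0.43).

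Day 5 against day 4.5 called 13.5% of genes and 1 of 6 members, Sox11, which rose from 360 to 435 CPM (0.26 ± 0.07, edgeR adjusted p = 0.0106). In the second experiment day 4.5 against day 4 called 7.36% of genes and again Sox11 alone of 6 members, from 289 to 389 CPM (0.40 ± 0.06, edgeR adjusted p = 0.000397), with 10 of 12 gastruloids above all 11 of day 4. The median neural share of cells was 21.2% and 29.7% on days 4.5 and 5 of MULTI-seq 3, and 2.5% and 21.7% on days 4 and 4.5 of MULTI-seq 2, and its part was not tested. Sox1 there was at 7.77 ± 12.6 on day 4 and 25.4 ± 29.1 on day 4.5 (1.99 ± 0.80, edgeR adjusted p = 0.137) and Sox3 at 12.6 ± 13.6 and 30.1 ± 23.1 (1.39 ± 0.54, adjusted p = 0.121). Both passed when gastruloids under 100 cells were left out (0.0347 and 0.0212). Of the other Sox genes, Sox5 (0.98 ± 0.20) and Sox6 (0.63 ± 0.14) rose in the day 5 comparison, and in the second experiment Sox6 rose (0.92 ± 0.22) and Sox17 fell (-1.97 ± 0.59). Neural progenitor genes gave 1 up and 1 down of 14 in the former and 4 up of 13 in the latter, led by Pou3f2 (3.77 ± 0.72) and Pax6 (2.18 ± 0.43).

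Levels inside a name separate a change in RNA from a change in how many cells carry the name, given the naming. Whether the mix of cells inside a name changed between days was not tested. In Late Spinal Cord cells Sox1 went down and Sox3 up between day 4.5 and day 5 of MULTI-seq 3. Sox1 stood at 80.5, 82.9, 93.7, 98.6, 102.5, 103.9 and 105.2 CPM in the 7 gastruloids of day 4.5. It stood at 57.7, 58.7, 59.3, 62.6, 65.8, 73.3, 80.5 and 83.9 in the 8 of day 5. Of the later gastruloids 6 lie below all earlier ones and the other 2 overlap the lowest earlier ones; the comparison called 7.79% of genes and 2 of 6 members. Sox1 fell by 0.43 on the log2 scale (SE 0.08, edgeR adjusted p = 0.000866), and the call held in 7 of 7 alternatives. Sox3 stood at 66.7 to 91.0 (median 84.7) on day 4.5 and at 83.8 to 104.2 (median 90.4) on day 5, with overlap. It rose by 0.21 ± 0.06 (edgeR adjusted p = 0.0491), a call lost in 4 of 7 alternatives: adjusted p was 0.0526 with RLE factors, 0.0592 by DESeq2, 0.422 without lane A and 0.133 without lane B.

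The other members of Late Spinal Cord cells gave no call. Sox21 spanned 58.1 to 89.2 on day 4.5 and 30.1 to 85.7 on day 5, with the next-lowest day 5 gastruloid at 63.8 (-0.01 ± 0.11, edgeR adjusted p = 0.996). Sox9 stood at 2.28, 2.48, 2.53, 2.55, 3.63, 7.04 and 8.21 CPM and then at 3.98, 4.29, 4.57, 5.62, 5.96, 6.91, 9.06 and 12.9 (0.89 ± 0.30, edgeR adjusted p = 0.0693, below 0.05 in 1 of 7 alternatives). The groups overlap. Sox4 (0.11 ± 0.06) and Sox11 (0.07 ± 0.05) had adjusted p of 0.337 and 0.475 in the same edgeR fit. In these cells 2 of 14 neural progenitor genes fell, Fabp7 (-1.21 ± 0.28) and the cadherin Cdh2 (-0.19 ± 0.06), and 2 of 6 neuronal genes fell, Stmn2 (-2.04 ± 0.25) and Tubb3 (-1.10 ± 0.15). Between the same days Stmn2 also fell in whole gastruloids (-1.39 ± 0.19), Mature Somites (-0.64 ± 0.17) and Mature Endoderm (-0.73 ± 0.18). The crest list gave 1 of 3 (Msx1, -1.12 ± 0.29) and the 5 other Sox genes tested 0 calls. The medians were 0.11 for the progenitor list, -0.04 for the neuronal list, 0.07 for other Sox genes and 0.00 for all genes.

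Days in different pools were not compared by test, and their values for the same cells follow as a description. Sox3 in Late Spinal Cord averaged 48.7 CPM on day 3.5 (3 gastruloids), 63.5 on day 4 (2), 81.3 on day 4.5 (7) and 91.4 on day 5 (8) in MULTI-seq 3, and 106.8 ± 23.7 on day 5 of MULTI-seq 1 (15). Sox1 averaged 88.7, 100.8, 95.3, 67.7 and 53.5 ± 21.9 in the same order. Sox9 averaged 0, 1.86, 4.10, 6.66 and 13.2 ± 11.4. In Late Neurectoderm Sox9 was 3.14 on day 3.5 (3), 6.04 on day 4 (2), 30.4 ± 22.1 on day 4.5 (3) and 37.5 ± 22.6 on day 5 (4).

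Early Spinal Cord cells gave 0 calls among 4 members between days 3.5 and 4, where 2.8% of genes were called, and 1 member, Sox3, was under 0.05 unadjusted, and DESeq2 also called 0. Sox3 stood at 25.9 to 52.2 CPM in 10 gastruloids and at 31.2, 41.5, 48.3, 55.9 and 60.9 in 5 (0.40 ± 0.13, edgeR adjusted p = 0.0858; 0.048 without lane D). Sox9 was under the filter there and has no test in the main fit. The 10 gastruloids of day 3.5 held 0 to 5.97 CPM, and the 5 of day 4 held 6.23, 7.38, 8.73, 10.9 and 11.2. These do not overlap, but the smallest sum of the comparison held 458234 UMIs, so such levels can rest on few UMIs. The share of all genes without overlap was not computed. Between days 4.5 and 5, with 12.4% of genes called, 2 of 6 members rose. Sox11 went from 282 ± 39.7 (226 to 384, n = 15) to 368 ± 55.9 (285 to 506, n = 16; 0.38 ± 0.06, edgeR adjusted p = 1.97e-05). Sox9 went from 4.85 ± 2.07 to 7.55 ± 2.27 (0.73 ± 0.20, edgeR adjusted p = 0.00935), with 9 of 16 above all 15; without lane A it fell under the filter on low counts. In the lists 3 of 10 neural progenitor genes rose, Pou3f2 (1.15 ± 0.15), Nes (0.42 ± 0.12) and Irx3 (0.40 ± 0.11), while of 4 neuronal genes 2 fell (Stmn2, -1.996 ± 0.17, and Tubb3, -1.20 ± 0.21) and Elavl4 rose (0.61 ± 0.13).

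NMPs gave 2 of 5 members between days 4.5 and 5, with 7.55% of genes called. Sox1 went from 6.81 ± 4.35 CPM (0.941, 6.42 and 15.5 as lowest, median and highest of 13) to 11.8 ± 3.89 (6.09, 11.3 and 20.6 of 16), a rise of 0.84 ± 0.23 (edgeR adjusted p = 0.0131) with overlap; without any 1 of the 3 lanes it was under the filter and untested. Sox11 went from 173 ± 27.2 to 240 ± 32.2 (0.38 ± 0.07, edgeR adjusted p = 6.19e-05), with 12 of 16 above all 13. Sox2 rose with Sox1 (0.38 ± 0.10), 1 of 3 other Sox genes tested. Of 9 neural progenitor genes 4 rose, with Pou3f2 at 1.90 ± 0.26, and 1 fell, and of 3 neuronal genes Stmn2 (-2.24 ± 0.17) and Dll1 (-0.88 ± 0.12) fell. Sox1 thus moved up in NMPs and down in Late Spinal Cord, but the test of that difference, added after seeing the data and limited to the 4 gastruloids of day 4.5 and 8 of day 5 that held both names, gave 0.69 ± 0.31 (edgeR adjusted p = 0.511; range over 6 alternatives 0.505 to 0.789). That test called 0.59% of genes and 0 of 6 members, with Sox1, Sox11 and Sox9 under 0.05 unadjusted in edgeR (0.0308 for Sox1). A difference between the names was not shown.

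Caudal Epiblast cells gave 3 of 4 members between days 3.5 and 4 (15 gastruloids each, 21.2% of genes called). Sox9 went from 5.88 ± 2.51 to 10.44 ± 3.78 CPM (0.73 ± 0.18, edgeR adjusted p = 0.00233) and Sox4 from 136 ± 27.2 to 171 ± 32.1 (0.32 ± 0.09, edgeR adjusted p = 0.00863; 0.062 without lane D). Sox11 went from 188 ± 42.9 to 148 ± 21.6 (-0.31 ± 0.09, edgeR adjusted p = 0.0108; 0.0463 without lane D). Sox9 was under the filter and untested without any 1 of the 4 lanes. Sox3, at an edgeR adjusted p of 0.0613, passed without lane A (0.0295) or B (0.0227). Of 9 neural progenitor genes 7 rose, led by Irx3 (1.52 ± 0.20) and Hes5 (1.45 ± 0.16), and of 3 other Sox genes Sox13 (0.52 ± 0.13) and Sox2 (0.39 ± 0.12) rose and Sox12 (-0.38 ± 0.10) fell.

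Sox11 went in opposite directions in the somite names between days 4.5 and 5. In Somites the 10 gastruloids of day 4.5 held 326, 376.5, 422, 425, 440, 477.5, 486, 493.5, 501 and 549 CPM, and the 12 of day 5 held 268 to 386.5 with a median of 322. Of the later ones 6 lie below all earlier ones, and Sox11 was the 1 member of 3 called in a comparison that called 3.6% of genes (-0.45 ± 0.07, edgeR adjusted p = 5.78e-05). In Mature Somites it went from 453, 539 and 1003 (lowest, median and highest of 13) to 550, 638 and 873 (16), a rise of 0.25 ± 0.07 (edgeR adjusted p = 0.0216; 0.0966 by DESeq2), 1 of 3 members beside 14% of genes. The difference between both names, tested after seeing the data in the 10 gastruloids of day 4.5 and 12 of day 5 that held both, was 0.69 ± 0.08 (edgeR adjusted p = 4.48e-08, at most 5.72e-05 in 7 alternatives), with 1 of 3 members and 1.13% of genes called. Sox9 in Somites stood at 14.4 ± 7.80 and 30.3 ± 16.0 (0.86 ± 0.27, edgeR adjusted p = 0.0615, below 0.05 in 2 of 7 alternatives).

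The Sox genes that act with Sox9 in cartilage, Sox5 and Sox6, rose in Mature Somites, by 1.14 ± 0.24 and 0.98 ± 0.20, with Sox2 (0.72 ± 0.20), while Sox12 fell (-0.22 ± 0.06), so that all 4 other Sox genes tested were called. Sox9 itself stood at 23.2 ± 15.5 and 30.9 ± 21.2 CPM (0.33 ± 0.31, edgeR adjusted p = 0.562). Of 5 sclerotome and cartilage genes 3 rose, the sclerotome factors Pax1 (5.10 ± 0.80) and Pax9 (0.81 ± 0.24) and the collagen Col2a1 (0.48 ± 0.11). Between the same days Col2a1 also rose in Early Spinal Cord (0.66 ± 0.12), Late Spinal Cord (0.59 ± 0.15), Mature Endoderm (0.96 ± 0.19) and whole gastruloids (0.72 ± 0.10), and Pax9 in Mature Endoderm (0.79 ± 0.14). In Somites Sox6 rose (1.05 ± 0.25), 1 of 2 other Sox genes tested.

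Mature Endoderm gave 0 calls among 4 members between days 4.5 and 5, where 1.63% of genes were called; 2, Sox21 and Sox11, were under 0.05 unadjusted in edgeR, and DESeq2 also called 0. Sox21 stood at 39.3, 42.1, 42.7, 46.1, 49.1, 88.3 and 106.9 CPM on day 4.5 and at 56.5, 60.5, 67.2, 94.7, 98.4, 98.9, 109.1, 112.6 and 126.8 on day 5 (0.52 ± 0.20, edgeR adjusted p = 0.239). The groups overlap. Sox11 stood at 77.6 ± 20.1 and 109 ± 27.3 (0.52 ± 0.15, edgeR adjusted p = 0.0923; 0.0396 without lane B and 0.0254 with no filter). Sox17, an endoderm marker that was highest in this name, fell (-0.36 ± 0.08). In Notochord, with too few gastruloids for a test, Sox9 was 110 ± 30.8 CPM on day 3.5 (3), 190 ± 33.4 on day 4 (7) and 319 ± 57.0 on day 5 (3). In Head Mesoderm it was 52.2 ± 18.7 on day 4 (7, from 31.5 to 76.6) and 119 ± 29.0 on day 5 (7, from 83.6 to 170). These groups do not overlap, but they come from different pools. For this pair of days the share of all genes without overlap was not computed.

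**Figure D4:**
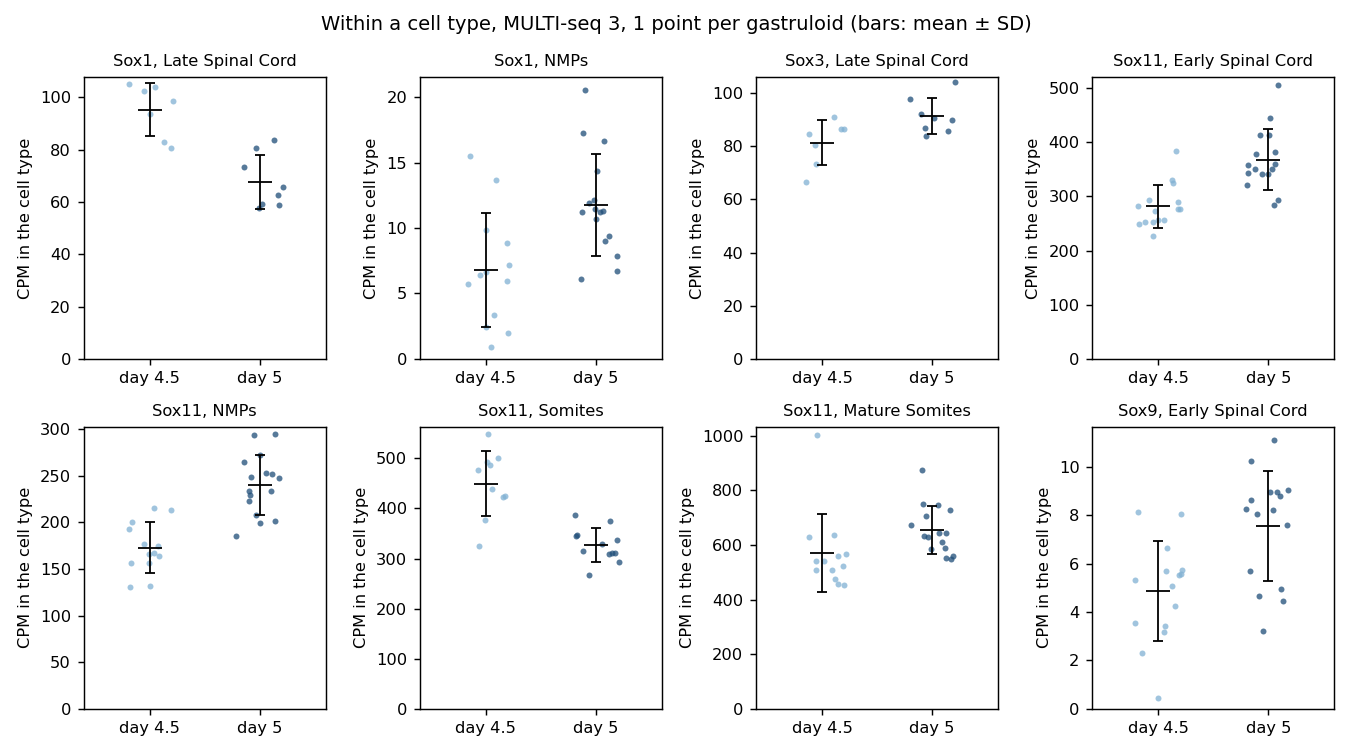
CPM (y axis) inside a cluster name on days 4.5 and 5 of MULTI-seq 3 (x axis); each point is 1 gastruloid, and bars are mean ± SD. Sox1 is lower on day 5 in Late Spinal Cord (67.7 against 95.3) and higher in NMPs (11.8 against 6.81), and Sox11 is lower in Somites and higher in Mature Somites.

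**Figure D5:**
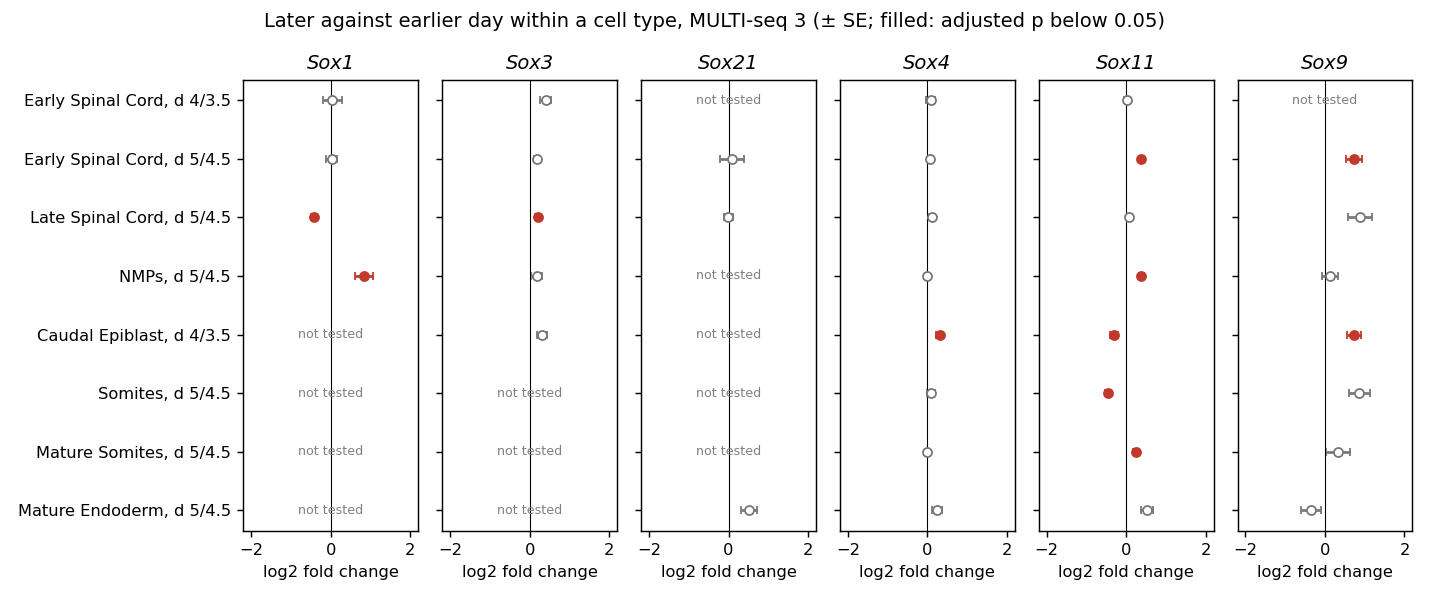
Log2 fold change of the later against the earlier day (x axis) with its SE for 6 Sox genes (panels) in 8 comparisons within a cluster name (rows); filled red points have an edgeR adjusted p below 0.05, open ones do not. Sox11 is filled in 5 rows, 3 to the right and 2 to the left of 0, and Sox4 in 1.

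Repeats of a day in separate experiments differed in many genes, and experiment, culture, lane and depth cannot be told apart there. On day 4, MULTI-seq 3 against MULTI-seq 2 called 46.1% of genes and 2 of 6 members: Sox4 at 243 against 176 CPM (0.29 ± 0.11, edgeR adjusted p = 0.0338) and Sox11 at 279.5 against 288.9 (-0.21 ± 0.06, edgeR adjusted p = 0.00516), each lost in 1 of 4 alternatives. On day 4.5, 42.5% of genes and 0 of 6 members were called, 0 at unadjusted p under 0.05 in edgeR and 0 by DESeq2. On day 5, MULTI-seq 3 against MULTI-seq 1 called 63.7% of genes and 2 of 6 members, Sox4 (0.22 ± 0.07) and Sox11 (0.18 ± 0.06; edgeR adjusted p = 0.00971 and 0.00972). Their plain CPM means were 210.6 against 210.8 and 434.7 against 449.2, so plain CPM does not show the direction of either call. Inside Late Spinal Cord cells of day 5, 48.5% of genes and 1 of 6 members were called, Sox1, at 67.7 ± 10.3 in 8 gastruloids of MULTI-seq 3 against 53.5 ± 21.9 in 15 of MULTI-seq 1 (0.34 ± 0.09, edgeR adjusted p = 0.0023).

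The spread between gastruloids was also read inside 1 name. In Late Spinal Cord cells of MULTI-seq 1 (12 gastruloids with at least 20 such cells, 30.5% to 93.1% neural), the log2 level of Sox3 had a Pearson r of 0.690 with the neural share (permutation p = 0.0121, adjusted over 12 relations 0.0701; Spearman's rho 0.615, permutation p = 0.0375, adjusted 0.144). For Sox1 r was 0.524 (permutation p = 0.0436, adjusted 0.131) and rho 0.769 (permutation p = 0.00487, adjusted 0.0584). Sox21 gave 0.667 (permutation p = 0.0114, adjusted 0.0701; rho 0.545, permutation p = 0.0712, adjusted 0.171) and Sox11 0.619 (permutation p = 0.0175, adjusted 0.0701; rho 0.643, permutation p = 0.0286, adjusted 0.144). Sox4 had an r of -0.08 (permutation p = 0.800) and Sox9 of 0.465 (permutation p = 0.129). Leaving out the 2 gastruloids whose share lay farthest from the median, r was 0.342 for Sox3, 0.671 for Sox1, 0.543 for Sox21 and 0.633 for Sox11. On day 4.5 of MULTI-seq 3 (7 gastruloids, 61.6% to 95.7% neural) r ran from 0.216 for Sox1 (permutation p = 0.635) to 0.763 for Sox9 (permutation p = 0.055, adjusted 0.132). None of the 12 relations passed the adjustment, and on day 5 of MULTI-seq 3 the shares fell in separate clusters and were not tested.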

How the data were processed

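Single-cell UMI counts deposited by the authors, 1 matrix per lane (10x 3' v3.1 per the labels), were read as deposited. Cell Ranger 6.0.0, Seurat and mm10 are named in the submitters' processing notes. Cluster names, lanes and gastruloid calls come from the authors' deposited cell table, and cells without a gastruloid call, barcode doublets among them, were left out of gastruloid sums; no doublet caller was run. Of 77683 cells in that table, 9 had no barcode in the matrices.

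Counts were summed per gastruloid (at least 30 cells) or per gastruloid and name (at least 10 cells, and at least 5 gastruloids a day for a test). Sums were fitted with edgeR 4.0.16 in R 4.3.3 (filterByExpr, TMM factors, quasi-likelihood test, Benjamini-Hochberg adjustment over all genes tested, 0.05 as threshold), and DESeq2 1.42.0 was an alternative. CPM is a gene's UMIs per 1000000 UMIs of the sum, and log2(CPM + 1) served the correlations. Python 3.11.15, numpy 2.4.6, scipy 1.17.1, pandas 2.3.3 and matplotlib 3.10.9 did the rest. Lanes of 1 pool split the same gastruloids and are not replicates. Binomial and Poisson intervals are exact, at 95%, and cover counting error only, as do limits for 0 counts (3 counts).

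Data were simulated for the Late Spinal Cord comparison of days 5 and 4.5 (9924 genes). In them 88 of 99 genes changed 1.5-fold and 93 of 93 changed 2-fold were called, with 6 false calls. Every simulated gene had the same spread between gastruloids (dispersion 0.0042), while real genes differ in theirs. The rates for genes that vary more were not tested.

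Named were the 7 members in each comparison, the other Sox genes called, up to 3 called genes with the largest change from each list, and the 5 genes most like each member. The members and lists were chosen with earlier results of these data known: other Sox genes (12), neural progenitor (15), neuronal (15), neural crest (12), and sclerotome and cartilage (8). Alternatives were RLE factors, DESeq2, no filter, other cell minimums, leaving out each lane, another pseudocount, the median for the mean and thinning to 2000 UMIs. The result for 1 neural crest marker is not reported here.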

Additional observations from a re-analysis of the deposited data

Results flagged for a closer look

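For 6 genes in 7 groups of 4 to 10 gastruloids of 1 day and name, which makes 42 sets of values, 9 sets held a value far from the rest by Dixon's criterion at 95%, and they fell in 6 of the 7 groups. For normally distributed values, chance gives such a value in about 1 of 20 independent sets. Sets with many values at 0 are not of that kind, normality was not tested, and the sets of a group share gastruloids. In Early Spinal Cord cells of day 3.5 (n = 10) the highest gastruloid held 76.12 CPM of Sox1, with the next at 32.98, and the highest Sox4 value was 261.2, with the next at 170.5. On day 4 (n = 5) the lowest Sox11 value there was 212.4, below 259.1. In Late Spinal Cord cells of day 5 (n = 8) 1 gastruloid held 30.06 CPM of Sox21, below 63.79. In Somites of day 4.5 (n = 10) 1 gastruloid held 3.098 CPM of Sox1 and the others 0, and the highest Sox3 value was 3.452, above 1.359; each rests on very few UMIs. In Mature Endoderm the lowest Sox3 value of day 4.5 was 0, below 4.675 (n = 7). On day 5 (n = 9) the highest Sox3 value was 11.18, above 6.486, and the highest Sox11 value 170.3, above 125.2.

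The change of Sox11 from day 4.5 to day 5 differed between Mature Somites and Somites by 0.6922 on the log2 scale (SE 0.0766, edgeR adjusted p = 4.48e-08).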

How the results depend on the processing

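Of the members' log2 fold changes under an alternative, 475 kept their direction and side of the threshold, 12 passed it newly, 8 no longer passed and 27 changed sign; the cause was not tested. No paired analysis was possible because, within a pool, no gastruloid barcode was used on both days, barcode numbers that recur between pools tag different gastruloids, and lanes split the same gastruloids; only the differences between 2 names were fitted within gastruloids. Numbers of members called moved as follows. With at least 100 cells a gastruloid, day 4.5 against day 4 of MULTI-seq 2 gave 3 in place of 1 and day 4 of MULTI-seq 3 against MULTI-seq 2 gave 1 in place of 2, as it did with no filter. With no filter Early Spinal Cord on day 4 gave 1 in place of 0, Mature Endoderm 1 in place of 0, and Somites and Mature Somites 2 in place of 1. DESeq2 gave 2 for Somites, 0 for Mature Somites, 1 for Late Spinal Cord (as did RLE factors) and 2 in place of 1 for Late Spinal Cord between experiments. Leaving out 1 lane gave 0 to 1 for Early Spinal Cord on day 4 (1 without D) and for Mature Endoderm (1 without B). It gave 1 to 2 for Early Spinal Cord on day 5 (1 without A) and Late Spinal Cord (1 without A or B), 1 for NMPs without A, B or C, and 1 to 3 for Caudal Epiblast (1 without D, where Sox11 kept its call).

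Signs turned only for values not called. For Sox9, day 4.5 against day 4 of MULTI-seq 2 gave -0.197 with 100 cells and -0.129 to 0.0315 without a lane, NMPs -0.0431 to 0.278 without a lane, and day 4 between experiments 0.0402 with no filter and 0.0465 by DESeq2. Sox1 in Early Spinal Cord gave -0.185 to 0.263 without a lane on day 4, and on day 5 -0.00492 with 20 cells and -0.0824 to 0.0767 without a lane. Sox11 in Early Spinal Cord on day 4 gave -0.0643 with 20 cells and -0.02195 to -0.00151 without a lane. Sox21 in Late Spinal Cord gave 0.00831 with no filter and -0.00373 to 0.00987 without a lane. Sox4 gave -0.117 with 20 cells and -0.0363 to 0.0218 without a lane in Somites, and 0.01985 with no filter and -0.0374 to 0.0358 without a lane in Mature Somites. Day 4 between experiments gave 2.03 for Sox1 and 0.963 for Sox3 with 100 cells. The difference of Mature Somites and Somites gave 0.0621 with 20 cells and -0.109 to 0.00172 without a lane for Sox4, and 1.20 with 20 cells and -0.552 to 0.390 without a lane for Sox9.

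With at least 50 Late Spinal Cord cells (9 gastruloids of MULTI-seq 1), r with the neural share was 0.797 for Sox3, now past the adjustment, 0.186 for Sox4 and -0.157 for Sox9. With at least 20 cells, Anterior Primitive Streak held 22.1 CPM of Sox21, 159.9 of Sox11 and 2.76 of Sox9, and Endothelium 214.0 of Sox11. Thinned to 2000 UMIs, Sox1 was read in 20.4% of Late Neurectoderm, 13.6% of Late Spinal Cord, 3.99% of Early Spinal Cord and 0% of Endothelium cells, and Sox21 in 18.8%, 13%, 0.705% and 0% of them and in 10.2% of Mature Endoderm. Sox10, with 77 UMIs in all, had no test.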

Other observations

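Some lanes carry no gastruloid call and entered no comparison. Their levels, with exact Poisson 95% intervals for counting error only, were as follows. In the day 3 lane made without MULTI-seq (3058 cells), Sox1 stood at 0.550 CPM (0.371 to 0.786), Sox3 at 8.16 (7.42 to 8.96), Sox4 at 193.6 (190.0 to 197.4) and Sox11 at 175.8 (172.3 to 179.4). In the day 4 lane (2440 cells), Sox1 stood at 9.98 (8.99 to 11), Sox4 at 291.9 (286.5 to 297.5) and Sox11 at 377.0 (370.8 to 383.2), with Sox9 at 16.0. A pool of MULTI-seq 2 that mixes days 4 and 4.5 held, in its 2 lanes, 31.7 and 26.6 CPM of Sox1, 23.5 and 19.6 of Sox21 and 392.9 and 351.0 of Sox11.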
